A study of Oryza sativa Japonica Group with 6 samples.

Results

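The small RNA libraries of rice anthers held 96 predicted hairpin miRNAs of 24 nt, out of 486 miRNAs listed in the tables of Taichung65-2x and Taichung65-4x. The members were chosen by name and length: each is 24 nt long and carries a name with the prefix PC. This prefix marks a sequence found on no known precursor but on a stretch of the rice genome that folds into a hairpin. The table of Taichung65-2x listed 51 of them and that of Taichung65-4x listed 88, with 43 in both tables, 8 only in that of Taichung65-2x and 45 only in that of Taichung65-4x. For comparison, the tables held 66 miRNAs of 24 nt named after an annotated miRNA, 48 predicted miRNAs of other lengths and 276 other miRNAs.

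Taichung65-2x is a diploid japonica rice, and Taichung65-4x is the autotetraploid that was raised from it by colchicine doubling and selfed for more than 20 generations. Anthers were collected at pre-meiotic interphase (PMA), meiosis (MA) and the single microspore stage (SCP), from florets of 2.50 to 3.00, 3.80 to 4.30 and 5.50 to 6.00 mm in Taichung65-2x. The florets of Taichung65-4x were longer at each stage, at 3.50 to 4.00, 4.80 to 5.30 and 6.50 to 7.00 mm. In stage order, anthers were 0.75 to 0.85, 1 to 1.35 and 1.4 to 1.55 mm long in Taichung65-2x. In Taichung65-4x they were 0.9 to 1.4, 1.45 to 1.95 and 1.5 to 2.05 mm, so the MA and SCP ranges overlap there. A difference in staging between the ploidies and an effect of ploidy cannot be told apart. Each of the 6 groups is 1 library of whole anthers from field-grown plants of 1 doubled line, so every difference below is between 2 libraries, has no replicate check and carries no p-value. Whole anthers hold wall tissue beside the meiocytes or microspores, and a change in the share of a cell type and a change in RNA per cell cannot be told apart.

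Most plant miRNAs are cut from short hairpins by DICER-LIKE1 and repress messenger RNAs. In rice, hairpins can also be cut by DICER-LIKE3 into long miRNAs of 24 nt, which load into ARGONAUTE proteins of the AGO4 clade and can direct DNA methylation at their own and related loci. AGO4-clade proteins favour small RNAs that start with A, whereas AGO1, the main partner of the shorter miRNAs, favours U. Small interfering RNAs of 24 nt, which come from double-stranded RNA at transposons and other repeats, are of the same length. Length alone therefore does not separate a long miRNA from them. The hairpin prediction is the criterion of the study, and whether it separates them was not tested here.

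Sequences are printed first for the set of related members that held the highest levels. Bases 2 to 8, the seed, are in capitals, letters run from the 5′ to the 3′ end as deposited, and T stands for U in the RNA.
PC-5p-72854_262: aCGAGACAttttataggacaataa
PC-5p-50441_402: aCGAGACAtttcataggacaacga
PC-5p-122014_164: aCGAGACAtttcatataacaacga
All 3 have the seed CGAGACA, on the 5′ arm. With positions counted from 1 at the 5′ end, PC-5p-50441_402 differs from PC-5p-72854_262 by C12T, C22T and G23A, and PC-5p-122014_164 differs from PC-5p-50441_402 by T16G and A17G. In each token the base of the first-named member comes first.

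A 3′ arm member was the reverse complement of 1 of these over 21 bases. The complementary stretches are in capitals, to show how far members named for different arms pair with each other.
PC-5p-50441_402: acgAGACATTTCATAGGACAACGA
PC-3p-247427_70: gatTCGTTGTCCTATGAAATGTCT
In both sequences the complementary stretch ran from position 4 to position 24, which leaves 3 bases at each 5′ end outside it. PC-3p-2098840_8, listed for Taichung65-4x alone, shared 13 bases with PC-3p-247427_70 on the same strand.

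A further set held 5 members with a common run of 16 bases. The run is in capitals, so that its shift along the sequence can be seen.
PC-5p-140078_122: gCCGGGAACCAATTTACtcatgat
PC-5p-56045_338: gCCGGGAACCAATTTACttatgat
PC-5p-77957_249: aCCGGGAACCAATTTACtcatgat
PC-5p-150654_123: cggaCCGGGAACCAATTTACtcat
PC-5p-259427_69: atttcgggCCGGGAACCAATTTAC
PC-5p-140078_122 and PC-5p-56045_338 differ by C19T alone, and PC-5p-140078_122 and PC-5p-77957_249 by G1A alone. The run began at position 2 in these 3 members, at position 5 in PC-5p-150654_123 and at position 9 in PC-5p-259427_69, so the last 2 have other seeds. PC-3p-376391_46 was complementary to PC-5p-140078_122 over 13 bases. PC-5p-285141_56 differs from PC-5p-259427_69 at 2 positions and PC-5p-369868_45 from PC-5p-140078_122 at 4, which puts both in the same set.

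The third set shown contains a member of high level with a complementary partner and an overlapping one. Capitals mark, in the first pair, the bases complementary to each other and, in the second pair, the bases that are identical.
PC-3p-115563_179: ATTGTCACTAACATgtggacccga
PC-5p-284770_65: ATGTTAGTGACAATggcacggtgc
PC-3p-115563_179: attgtcACTAACATGTGGACCCGA
PC-5p-428368_41: ACTAACATGTGGACCCGAtgtgtc
PC-3p-115563_179 and PC-5p-284770_65 were complementary over 14 bases at their 5′ ends. PC-5p-428368_41 shared 18 bases with PC-3p-115563_179 on the same strand, although the names place them on different arms.

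Such kinship was not limited to the sets printed. Members were joined where they shared at least 12 bases on either strand or differed at no more than 4 of their 24 positions, a definition chosen after the sequences were seen. By it, 43 members (44.8%) fell into 14 groups of 2 to 8, and 53 had no relative. No such share is given for the other classes of miRNA, so whether kinship is particular to the members was not tested. Of the 43 pairs so joined, 22 shared bases on the same strand and 14 on opposite strands, and 13 of those 14 paired a 5p name with a 3p name. Their positions in the genome were not analysed here, so it was not tested whether such pairs come from 1 hairpin, from the 2 strands of 1 locus or from several loci.

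As a class, the members were marked by their first base. A stood at the 5′ end of 71 of 96 (74.0%), G of 16, C of 5 and T of 4. The annotated 24 nt miRNAs had A in 66.7%, while the predicted miRNAs of other lengths had A in 20.8% and T in 54.2%, and 21 nt miRNAs of any origin had A in 15.2% and T in 51.9%. The first base therefore went with length and not with the way a miRNA had been found. The share with A was 76.7% for members in both tables, 73.3% for those of Taichung65-4x alone and 62.5% for the 8 of Taichung65-2x alone. The 5p arm gave 57 members and the 3p arm 39. GC content had a median of 45.8% and ran from 29.2% to 62.5%.

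Seeds were mostly private to 1 member. The 96 sequences had 89 seeds, of which 5 were shared by 12 members. The seed CGAGACA stood in 3 members of the first set printed above. Another, CCGGGAA, stood in the first 3 members of the set with the common run, and each of the other seeds shared was held by 2 members. The 7 letters CCTAGGA, searched on both strands and chosen after the sequences were seen, were found in 7 of the 96 (7.29%), in none of the 66 annotated 24 nt miRNAs, in none of the 48 predicted miRNAs of other lengths and in 2 of the 276 others (0.725%). It is shown in capitals in the 2 members where it starts earliest, at position 3, and latest, at position 13.
PC-5p-599407_26: aaCCTAGGAtaggattagactcat
PC-5p-288374_57: ataatgtagcaaCCTAGGAtgggt
A match is a description of the letters, not of a site.

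Some predicted members were near relatives of miRNAs listed under other names. With the same limit of 12 shared bases on either strand, 12 members shared sequence with 13 other miRNAs in the tables, and 8 of the 12 with miRNAs of annotated hairpins. Examples from 2 annotated families and a 21 nt sequence, picked after the sequences were seen, are printed with the shared bases in capitals.
PC-3p-253452_68: agATTCGTTGTACTAGGATGTatc
osa-MIR1862g-p3_1ss11TC: ATTCGTTGTACTAGGATGTgtcac
PC-5p-325226_56: atgtccAGATTCGTAGTACTAGGT
osa-MIR1849-p3_1ss9TA: AGATTCGTAGTACTAGGTaatgcc
PC-5p-146318_134: aagAACTTTATGTTGGCACTGACT
PC-3p-314191_76: AACTTTATGTTGGCACTGACT
PC-3p-253452_68 shared 19 bases with a 3′ arm variant of miR1862, a rice family of long miRNAs, and PC-5p-325226_56 shared 18 with a variant of miR1849. PC-5p-146318_134 contained the whole of PC-3p-314191_76, a predicted miRNA of 21 nt, behind 3 more bases at its 5′ end, so a 21 nt and a 24 nt form of 1 sequence were both listed. Among those not printed, PC-3p-162663_115 shared 21 bases with PC-5p-744469_21, a predicted miRNA of 23 nt. PC-3p-367244_47, listed for Taichung65-4x alone, contained all 18 bases of osa-miR5810_R-6_1ss13TC, listed for Taichung65-2x alone.

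**Figure D1:**
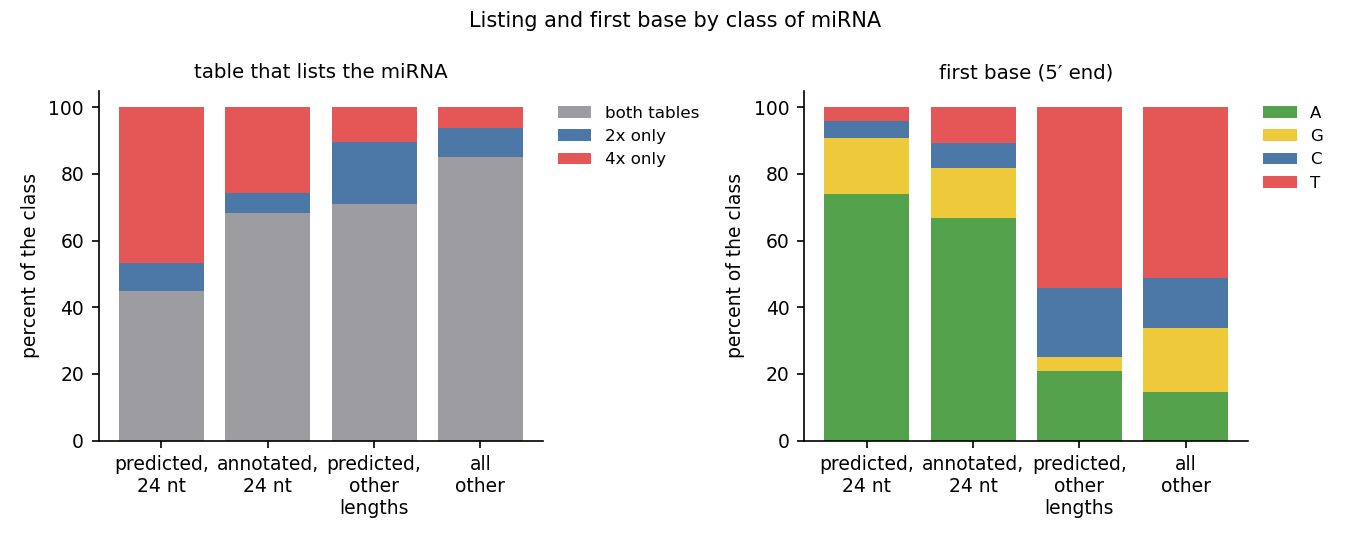
Percent of each class by the table that lists the miRNA (left) and by its first base (right), for the 96 predicted miRNAs of 24 nt, the 66 annotated ones of 24 nt, the 48 predicted ones of other lengths and the 276 others. The predicted 24 nt class has the largest share listed for Taichung65-4x alone (46.9%) and, with the annotated 24 nt class (66.7%), a majority that starts with A (74.0%).

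Levels are the deposited normalized reads. The value of 1 read was recovered as 1.35, 0.944 and 0.888 for PMA, MA and SCP of Taichung65-2x and as 1.36, 0.906 and 0.797 for Taichung65-4x. A miRNA was listed for a ploidy if it exceeded 10 in at least 1 stage, which is 7.43 reads at PMA but 11.3 at SCP for Taichung65-2x, against 7.36 and 12.5 in the tetraploid. The median member had between 7 and 16 reads in a library. The listed miRNAs made up between 1.53% and 2.17% of the clean reads of a library. Intervals are 95% intervals of counting error, exact for 2 libraries, and hold no biological variation. For a single member they are given where both values are whole reads within 0.01. For sums and shares they rest on the added reads, also where single values were not whole reads. The stage labels were checked with summed miR2118, known from pre-meiotic rice anthers. It was highest at PMA in both ploidies (33274 and 25343) and lowest at SCP (4642 and 6425). Summed miR2275, which the paper places in tapetum and meiocytes, was highest at PMA too (19286 for the diploid, 16161 for the tetraploid). It was lower at MA (14685, then 12636) and lowest at SCP (12524, then 10986). As deposited, miR2275 therefore did not single out the MA libraries. The order of the miR2275 sums can depend on how the libraries are scaled, and no other scaling was applied to them.

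Listing divided the members more than it did other miRNAs. In one table alone stood 53 of the 96, against 76 of the 390 other miRNAs, and for Taichung65-4x alone the shares were 46.9% of the members, 25.8% of the annotated 24 nt miRNAs, 10.4% of the predicted miRNAs of other lengths and 6.16% of the rest. For Taichung65-2x alone they were 8.33%, 6.06%, 18.8% and 8.70%. Many of the members of 1 table stood close to the limit of listing: of the 45 of Taichung65-4x alone, 21 had their highest value under 12 and 4 over 20, and of the 8 of Taichung65-2x alone, 6 had it under 12. Taichung65-4x alone listed 28 of the 45 through 1 stage, 10 through 2 and 7 through all 3, with 14 over the limit at PMA, 24 at MA and 31 at SCP. A member missing from a table was at 10 or less at each stage there, so its absence is a limit and not a level of 0.

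The highest of those listed for Taichung65-4x alone was PC-3p-46519_401, at 17.7, 17.2 and 33.5 at PMA, MA and SCP. PC-3p-622999_25 followed at SCP with 10.9, 11.8 and 24.7, and PC-5p-259427_69, of the set with the common run, had 7.47, 16.3 and 23.1. All 3 were highest at SCP, while PC-3p-1530584_11 (12.2, 21.7 and 11.2) was highest at MA. The study lists PC-3p-403976_40 and PC-3p-550716_26 among miRNAs with a predicted target that a protein interaction database linked to a meiosis gene. In these tables PC-3p-403976_40 had 8.83, 15.4 and 16.3, and PC-3p-550716_26 had 2.72, 11.3 and 6.38. Both were under the limit at PMA and over it at MA.

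Those listed for Taichung65-2x alone were lower and each passed the limit at 1 stage, 5 at PMA, 2 at MA and 1 at SCP. PC-3p-760682_19 had 17.5 at PMA, 2.83 at MA and a listed 0 at SCP, where a count of 0 allows up to 3 reads or 2.67. PC-5p-563680_30 had 4.71, 16.5 and 7.11, with its peak at MA. PC-5p-689072_27 (1.35, 2.83 and 11.5) was the 1 member of this kind that was highest at SCP.

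Of the members in both tables, the related set with the seed CGAGACA was the most abundant. In stage order, PC-5p-72854_262 had 37.7, 30.7 and 36.9 in Taichung65-2x against 39.4, 83.3 and 90.1 in Taichung65-4x. The libraries of both ploidies were alike at PMA and stood apart at the later stages. PC-5p-50441_402 had 31.6, 31.6 and 29.3 in Taichung65-2x against 24.5, 67.0 and 62.6 in Taichung65-4x. PC-5p-122014_164 had 17.5, 12.3 and 19.5 against 17.0, 20.4 and 49.4. Its difference was wider at SCP than at MA. The complementary PC-3p-247427_70 had 18.2, 8.97 and 19.1 against 17.7, 23.6 and 30.7, and was likewise higher in Taichung65-4x at MA and SCP.

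Summed over these 4, the level went from 105 at PMA to 83.5 at MA and 104.8 at SCP in Taichung65-2x, and from 98.5 to 194 and 233 in Taichung65-4x. The fold of Taichung65-4x over Taichung65-2x was 0.94 at PMA (0.67 to 1.30), 2.33 at MA (1.82 to 3.04) and 2.22 at SCP (1.79 to 2.77). The members named 5p are near-identical and the one named 3p is complementary to PC-5p-50441_402, so their folds are not separate observations.

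PC-3p-115563_179 had 15.5, 18.4 and 20.4 in Taichung65-2x against 25.8, 31.7 and 48.6 in Taichung65-4x, and was thus higher in Taichung65-4x at all 3 stages. Its complementary partner PC-5p-284770_65 had 10.8, 7.55 and 12.4 against 10.9, 23.6 and 20.7. Together they differed 2.13-fold at MA (1.36 to 3.55) and 2.11-fold at SCP (1.42 to 3.19). The difference was smaller in 3 other abundant members, which stayed within a fold of 2 at every stage. As deposited, PC-3p-437187_48 was lower at each later stage in both ploidies, with 31, 21.7 and 11.5 in Taichung65-2x against 29.9, 20.8 and 15.9 in Taichung65-4x. In reads it had 23, 23 and 13 against 22, 23 and 20, so its fall in Taichung65-4x depends on the scaling. PC-5p-196695_85 had 24.2, 19.8 and 16.9 against 17.7, 15.4 and 20.7. PC-5p-325226_56 had 18.9, 13.2 and 16 against 23.1, 17.2 and 23.9, and was higher in Taichung65-4x at all 3 stages by these smaller amounts.

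**Figure D2:**
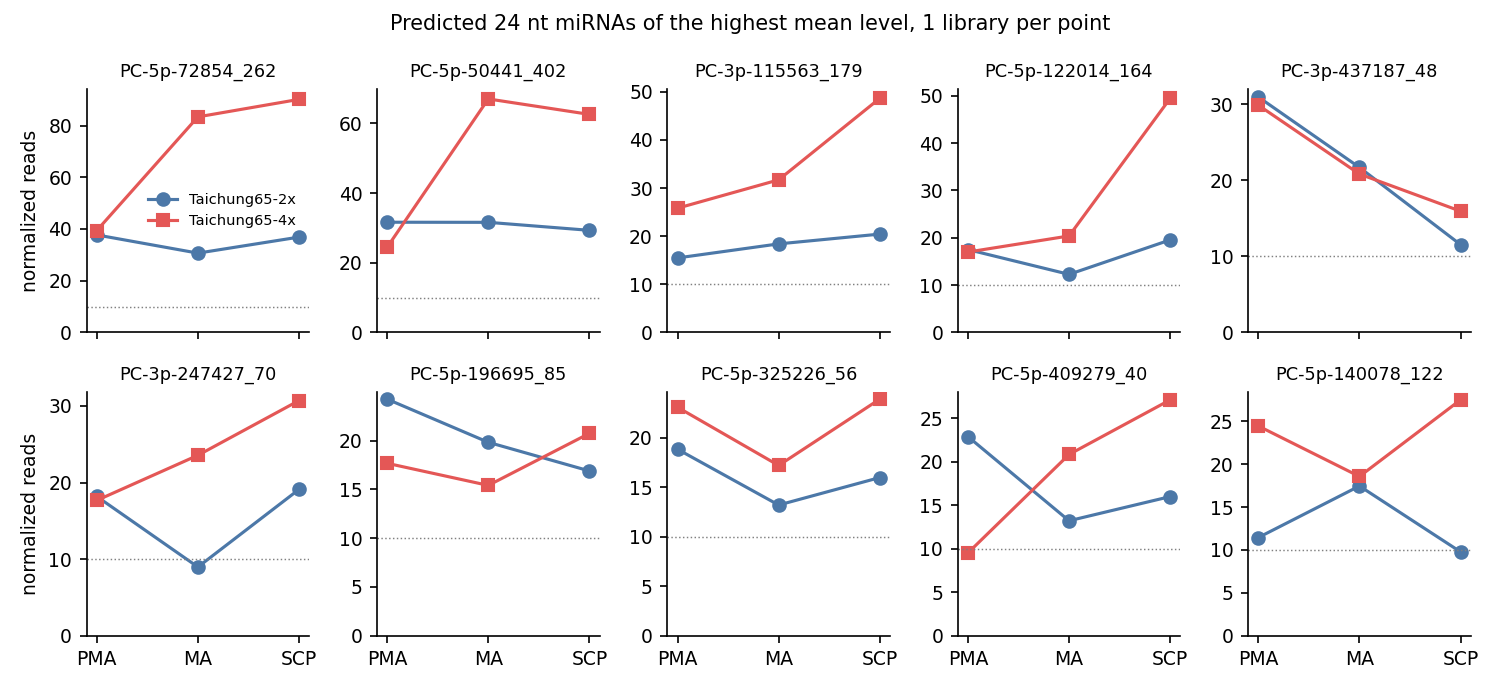
Normalized reads of the 10 predicted 24 nt miRNAs with the highest mean level among those in both tables, at PMA, MA and SCP, 1 library per point, with the listing limit of 10 as a dotted line; each panel has its own scale from 0. PC-5p-72854_262 and PC-5p-50441_402 lie close together in both ploidies at PMA and part at MA, whereas PC-3p-437187_48 takes a like course in both on the deposited scale.

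Sequences that differ by 1 base did not always have like levels. PC-5p-56045_338 had 33.7, 8.02 and 10.2 in Taichung65-2x against 9.51, 13.1 and 12 in Taichung65-4x. PC-5p-140078_122, the relative that differs from it at position 19 alone, had 11.4, 17.5 and 9.77 against 24.5, 18.6 and 27.5. At PMA the first was 3.54-fold lower in Taichung65-4x (1.49 to 9.69) and the second 2.14-fold higher. The 4 members of this set in both tables summed to 76.1 and 65.2 at PMA, a fold of 0.86 (0.57 to 1.27), to 48.1 and 51.6 at MA (1.07, 0.72 to 1.60) and to 43.5 and 80.1 at SCP (1.84, 1.29 to 2.63). The sum of the set was thus nearer between the ploidies at PMA than either member was.

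The question of the ploidy comparison is which miRNAs differ between an autotetraploid and its diploid parent at 1 stage of pollen development. A member was called where the larger value exceeded 10 and the fold exceeded 2, the limits of the study without its test on reads. A member missing from a table was set at 10 there, and can therefore be called only in favour of the ploidy that lists it. Scaling moved the later stages: the median log2 ratio of all 357 miRNAs in both tables shifted by 0.00 to 0.09 at PMA, by 0.30 to 0.31 at MA and by 0.04 to 0.33 at SCP when the libraries were scaled by their sums, by the median ratio or by the clean reads. All of these shifts were towards Taichung65-4x.

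At PMA the members leaned to neither ploidy. Of 59 tested, 5 were called higher in Taichung65-4x and 6 lower, 8.47% and 10.2%, where 5.54% of all miRNAs tested were called higher and 5.54% lower. Among the 43 in both tables, 17 were higher in Taichung65-4x, with a median log2 ratio of −0.18 (−0.48 to 0.01) against 0.01 for all miRNAs in both tables. The range beside a median is the 95% interval of the median over miRNAs of 1 pair of libraries. Related miRNAs are not independent, so it is no test. Nor is it the spread of the miRNAs: the ratios of the 43 ran from −2.57 to 2.47 here. The median was 0.01 over members above 20, so its sign depends on the low ones. PC-5p-598944_29 had 2.69 in Taichung65-2x against 14.9 in Taichung65-4x, a fold of 5.55 that rests on 2 reads (1.21 to 51.5). PC-5p-409279_40 had 22.9 and 9.51, which is 2.41-fold lower (0.95 to 6.86). An interval could be given for 8 of the 11 calls, and it was clear of 1 for 1 higher and 1 lower.

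At MA every call was in the direction of Taichung65-4x. Of 59 members tested, 10 (16.9%) were called higher and 0 lower, where 5.26% of all miRNAs were called higher and 9.21% lower. In both tables, 36 of 43 were higher in Taichung65-4x, and the median log2 ratio was 0.44 (0.23 to 0.78) against −0.24 for all miRNAs. PC-5p-311831_53 had 5.66 and 22.6, a fold of 4.00 (1.60 to 11.9). PC-3p-505302_34 had 4.72 and 18.1 (3.84-fold, 1.40 to 13.1), and PC-3p-300105_52 had 7.55 and 21.7 (2.88-fold, 1.25 to 7.42). These low members differed by as much as the abundant PC-5p-72854_262 (2.72-fold) and PC-5p-50441_402 (2.12-fold). All 5 calls for which an interval could be given were clear of 1. With the libraries scaled in any of the 3 other ways, 18 members were called higher and 0 lower. The balance over all miRNAs turned under these scalings, to between 41 and 43 called higher and 14 or 15 lower, from 20 and 35.

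At SCP the difference was wider. Of 72 members tested, 20 (27.8%) were called higher in Taichung65-4x and 0 lower, where 13.4% of all miRNAs were called higher and 10.2% lower, and 3 of the 20 were bounds. In both tables, 40 of 43 were higher in Taichung65-4x, and the median log2 ratio was 0.75 (0.56 to 1.13) against −0.11 for all miRNAs. PC-5p-122014_164 was 2.53-fold higher (1.53 to 4.32), PC-3p-115563_179 2.38-fold (1.45 to 4.03) and PC-5p-127210_152, with 7.11 and 21.5, 3.03-fold (1.34 to 7.72). PC-5p-311831_53 stood apart here as at MA, with 8.0 and 31.1 (3.89-fold, 1.85 to 9.13). PC-5p-222023_90 had 1.78, or 2 reads, and 16.7, a ratio of 9.43 (2.30 to 82.9), and PC-3p-209833_80 had 0.888, or 1 read, and 14.0. Of the 11 calls with an interval, 7 were clear of 1. Scaled by the sums, 29 members were called higher and 0 lower, where 84 of all miRNAs were called higher and 17 lower. With the median ratio and with the clean reads, 20 members stayed higher and 0 lower. All miRNAs then had 55 higher and 35 lower, and 53 higher and 35 lower, in that order.

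The direction was shared by other miRNAs of the same length and not by other predicted miRNAs. The annotated 24 nt miRNAs in both tables had medians of −0.07, 0.29 and 0.63 at PMA, MA and SCP, with 21, 34 and 35 of 45 higher in Taichung65-4x. The predicted miRNAs of other lengths had 0.08, −0.57 and −0.50, with 21, 7 and 11 of 34 higher. These differences between classes lie within the same pairs of libraries and were not tested. Member by member, 33 of the 43 were higher in Taichung65-4x at both MA and SCP, as were 29 of 45 annotated 24 nt miRNAs, 6 of 34 predicted miRNAs of other lengths and 92 of all 357. At PMA, 20 of these 33 were lower in Taichung65-4x. None of the 43 was lower at all 3 stages.

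**Figure D3:**
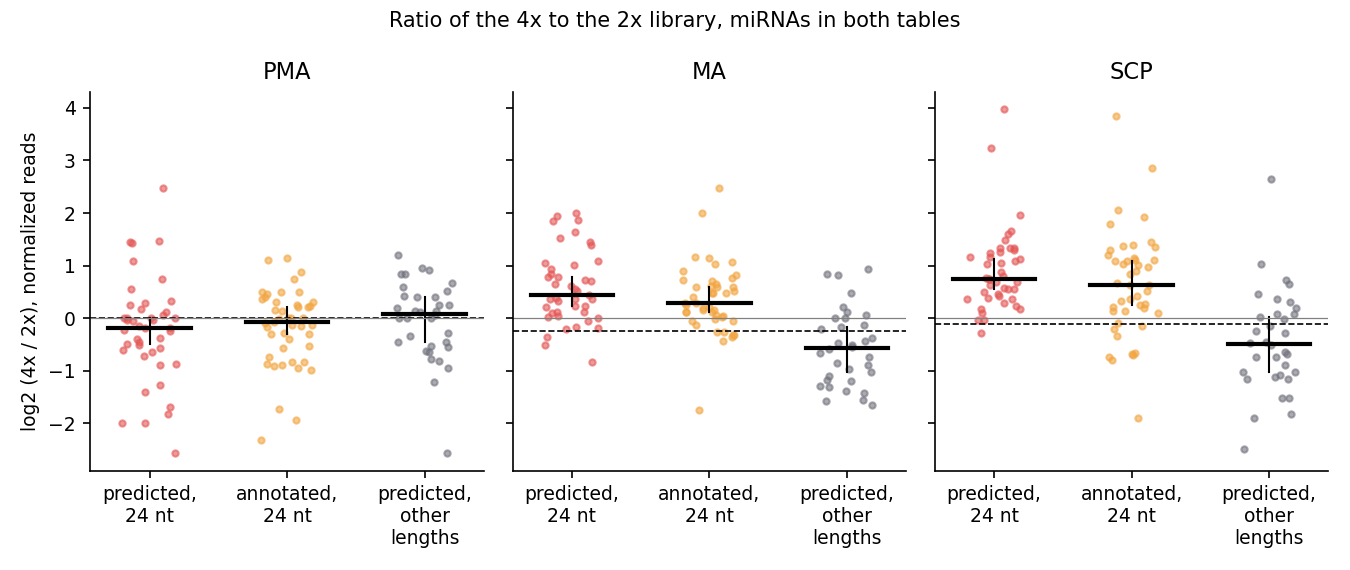
Log2 ratio of the 4x to the 2x library for miRNAs in both tables at each stage; points are miRNAs, thick bars medians, thin bars their 95% intervals over miRNAs (no test), and the dashed line the median of all 357. The members' median lies at −0.18, 0.44 and 0.75 at PMA, MA and SCP, beside that of the annotated 24 nt miRNAs and above that of predicted miRNAs of other lengths at MA and SCP.

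Within the 43 the difference did not belong to 1 kind of member. At SCP the median log2 ratio was 0.74 (0.50 to 1.09) for the 33 members that start with A and 1.19 (0.38 to 1.65) for the 10 others. It was 0.75 for 27 members of the 5p arm and 0.86 for 16 of the 3p arm, and 0.80 for 22 members with a relative and 0.75 for 21 with none. At MA the medians were 0.53 and 0.28, 0.38 and 0.48, and 0.67 and 0.36 in the same order.

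At PMA, MA and SCP, the 43 summed to 648, 466 and 500 in Taichung65-2x against 580, 730 and 927 in Taichung65-4x. The fold of Taichung65-4x over Taichung65-2x was 0.895 (0.784 to 1.02) at PMA, 1.57 (1.40 to 1.76) at MA and 1.85 (1.67 to 2.05) at SCP. The annotated 24 nt miRNAs in both tables differed less, by 0.936, 1.20 and 1.34, and the predicted ones of other lengths by 1.06, 0.665 and 0.735. Leaving out PC-5p-72854_262, the highest, gave 0.885, 1.49 and 1.81 for the members. As a share of the listed reads, the 43 took 0.499% (0.455 to 0.545), 0.437% (0.399 to 0.477) and 0.646% (0.594 to 0.701) for Taichung65-2x, and 0.448% (0.406 to 0.492), 0.840% (0.784 to 0.900) and 1.50% (1.42 to 1.59) for Taichung65-4x. All 88 members listed for Taichung65-4x made up 0.721%, 1.36% and 2.35%, and the 51 of Taichung65-2x 0.550%, 0.483% and 0.686%. These sets differ, since each was chosen by the listing limit in its own ploidy. A member missing from a table adds nothing to the share there, although its level is unknown. The gap between the shares of the 88 and the 51 is thus partly set by listing, whereas the 43 are the same members in both ploidies.

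**Figure D4:**
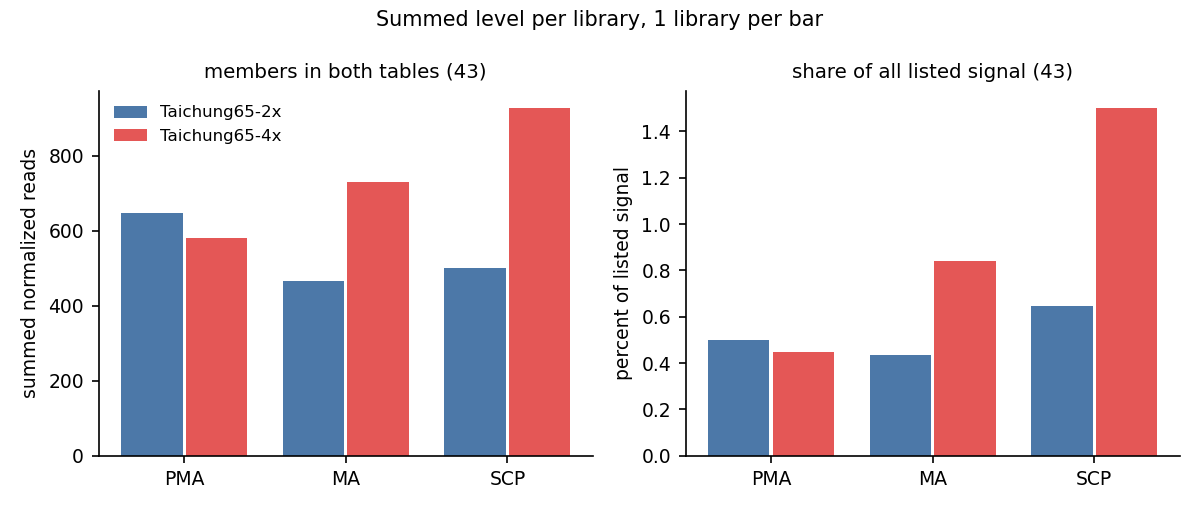
Summed normalized reads of the 43 members in both tables (left) and their percent of all listed signal (right), by stage and ploidy, 1 library per bar. The sum runs from 648 to 500 between PMA and SCP in Taichung65-2x and from 580 to 927 in Taichung65-4x. The percent runs from 0.499 to 0.646 in Taichung65-2x, so the direction there depends on the scaling, and it is also higher at SCP than at PMA in Taichung65-4x.

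The stage comparisons ask how the members change over pollen development in each ploidy; those of 1 ploidy share the MA library. From PMA to MA the calls over the members listed for each ploidy leaned in opposite directions. These sets differ, and a member listed through 1 stage alone can be called only towards that stage. Of the members listed for Taichung65-2x alone, 5 passed the limit at PMA only and 2 at MA only. For Taichung65-4x alone these numbers were 5 and 8. The medians below are over the same 43 members in both ploidies. In Taichung65-2x, 3 of 45 members tested were called higher at MA and 16 lower, 6.67% and 35.6%, where 5.54% of all miRNAs were called higher and 22.2% lower. In Taichung65-4x, 17 of 66 were called higher and 5 lower, 25.8% and 7.58%, where 10.3% and 29.2% of all miRNAs were. The median log2 ratio of the 43 was −0.51 (−0.79 to −0.21) in Taichung65-2x against 0.26 (−0.16 to 0.52) in Taichung65-4x. Over all miRNAs in both tables the corresponding medians were −0.31 and −0.63. The annotated 24 nt miRNAs in both tables had −0.31 and 0.13, and so opposite signs as well. Of those listed, 2 of 47 tested were called higher at MA and 11 lower in Taichung65-2x. In Taichung65-4x, 12 of 54 were called higher and 3 lower. Of the 43, 21 were lower at MA in Taichung65-2x and higher in Taichung65-4x, and 4 the reverse. The calls in Taichung65-2x became 4 higher and 9 lower under each other scaling, and those in Taichung65-4x 30 to 32 higher and 1 lower. Over all miRNAs, the 41 higher and 116 lower of Taichung65-4x turned to between 79 and 84 higher and between 32 and 36 lower, and the 21 and 84 of Taichung65-2x became 38 and 54, 38 and 54, or 45 and 43.

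Named members show these courses. In Taichung65-2x, PC-5p-56045_338 was 4.20-fold lower at MA than at PMA and PC-3p-391318_50, with 25.6 and 11.3, 2.26-fold lower (1.04 to 5.10). PC-3p-760682_19, listed for Taichung65-2x alone, was 6.18-fold lower (1.70 to 33.8). It was listed through PMA alone, so the direction of this fold was set by the listing limit. In Taichung65-4x, PC-5p-50441_402 was 2.74-fold higher at MA than at PMA (1.62 to 4.88), PC-5p-72854_262 2.12-fold (1.38 to 3.33) and PC-5p-409279_40, with 9.51 and 20.8, 2.19-fold (0.91 to 6.04). The same 3 members had 31.6 and 31.6, 37.7 and 30.7, and 22.9 and 13.2 at PMA and MA in Taichung65-2x. None of them was higher at MA there.

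From MA to SCP the calls were divided in Taichung65-2x and mostly higher at SCP in Taichung65-4x. Listing enters these counts too. Of the members listed for Taichung65-4x alone, 15 passed the limit at SCP only and 8 at MA only, and for Taichung65-2x alone 1 and 2. In Taichung65-2x, 5 of 36 were called higher at SCP and 4 lower, 13.9% and 11.1%, where 8.17% and 37.2% of all miRNAs were. In Taichung65-4x, 14 of 81 were called higher and 1 lower, 17.3% and 1.23%, where 9.23% and 21.3% of all miRNAs were. The median log2 ratio of the 43 was 0.18 (−0.11 to 0.42) and 0.38 (0.17 to 0.55), against −0.64 and −0.48 for all miRNAs in both tables. The split in Taichung65-2x became 11 and 3, 14 and 3, or 19 and 3 when libraries were scaled by their sums, the median ratio or the clean reads, and the calls in Taichung65-4x became 30, 28 or 37 higher and 0 lower. In the same order, all miRNAs went from 29 higher and 132 lower to 54 and 66, 79 and 39, or 97 and 26 in the diploid, and from 36 and 83 to 81 and 33, 74 and 39, or 95 and 29 in the tetraploid. The lean of all miRNAs towards MA thus held as deposited and, in the diploid, with the sums alone. PC-5p-122014_164 went from 20.4 to 49.4 in Taichung65-4x (2.43-fold), PC-5p-269393_64 from 8.15 to 23.9 (2.93-fold, 1.36 to 7.03) and PC-3p-84312_233 from 9.06 to 21.5 (2.38-fold, 1.11 to 5.50). PC-3p-247427_70 went from 8.97 to 19.1 in Taichung65-2x (2.13-fold).

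The stage at which a member was highest followed from these courses, but it moved with the scaling. As deposited, 31 of 51 members of Taichung65-2x were highest at PMA, 7 at MA and 13 at SCP, and of 88 members of Taichung65-4x 12, 22 and 54. The share at PMA in Taichung65-2x was 60.8%, near the 60.2% of all 402 miRNAs listed there, whereas the share at SCP in Taichung65-4x was 61.4% against 30.2% of all 441. For the annotated 24 nt miRNAs these 2 shares were 61.2% and 50.0%. Of the 26 members in both tables that were highest at PMA in Taichung65-2x, 17 were highest at SCP in Taichung65-4x. Scaled by the clean reads, the counts became 11, 4 and 36 in Taichung65-2x against 2, 8 and 78 in Taichung65-4x. At SCP these are 70.6% and 88.6% of the members, where 49.3% and 52.8% of all miRNAs were highest at SCP. The annotated 24 nt miRNAs were nearer to the members, with 69.4% and 82.3%. The frequent peak at PMA in Taichung65-2x depended on the scaling. SCP was the most frequent stage of the members in Taichung65-4x under each of the 4 scalings, and that of all miRNAs there under the 3 other than the deposited one.

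**Figure D5:**
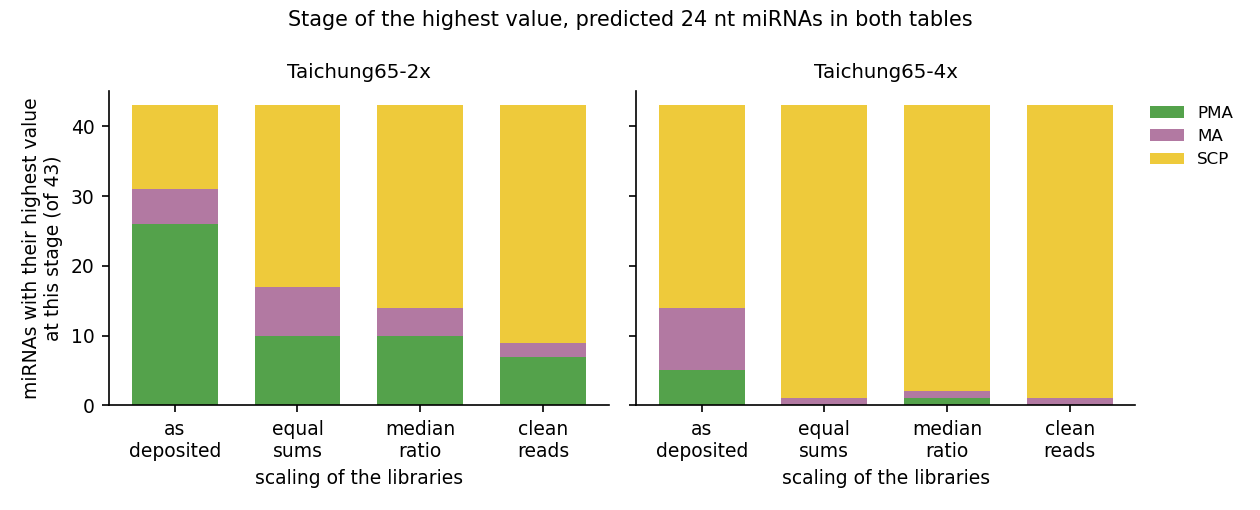
Number of the 43 members in both tables with their highest value at PMA, MA or SCP, by ploidy, with the values as deposited and with the libraries scaled by their sums (equal sums), the median ratio or the clean reads. As deposited, 26 are highest at PMA in Taichung65-2x and 29 at SCP in Taichung65-4x; with clean reads, 34 and 42 are highest at SCP.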

How the data were processed

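Small RNA libraries were prepared with a TruSeq kit and sequenced on a HiSeq2500, and the authors filtered reads with the Illumina pipeline (Solexa 0.3) and ACGT101-miR, compared them with miRBase allowing 1 mismatch, and folded the genome around unmatched sequences with RNAfold. For the genome build, the sources used here give no name. The deposited signal of a miRNA is its copy number times a correction factor of its library, and each table holds those over 10 in at least 1 stage; no column of values was left unused. Reads were recovered as multiples of the largest step that left over 70% of values whole. A listed 0 was read as 0.01 in calls. There are 1 library per group and no replicates, so counts and medians are given without tests. The members, lists and comparisons were chosen with earlier results of these data known, and the study's methods set the threshold of 10 and the fold of 2. Named members were the 10 highest in both tables, the largest ratios of each comparison where the higher value was 20 or more, the 5 highest of each single table, members the study names and members whose sequences are described, with further examples (PC-5p-598944_29, PC-3p-505302_34, PC-5p-222023_90 and PC-3p-209833_80) chosen after their values were seen. Alternatives were other scalings, thresholds, folds, a pseudocount of 1, other treatment of unlisted members, matching by sequence and overlapping members (16 bases or more) counted once. The step recovery, calls and intervals were tested on simulated data. Python 3.11.15 with pandas 2.3.3, numpy 2.4.6, scipy 1.17.1, networkx 3.6.1 and matplotlib 3.10.9 was used.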

Additional observations from a re-analysis of the deposited data

Results flagged for a closer look

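The median step of the 43 members in both tables from PMA to MA had opposite signs in the ploidies, at −0.51 on the log2 scale in Taichung65-2x and 0.26 in Taichung65-4x. The difference was not tested, since each group is 1 library. Counting overlapping members once left the first at −0.51 and lowered the second to 0.09. Scaling by the sums, the median ratio or the clean reads moved the first to between −0.23 and −0.14 and the second to between 0.83 and 0.86, and the signs stayed opposite.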

How the results depend on the processing

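Replicates could not be paired within a comparison, because each group has 1 library and the groups share no more than 1 replicate number. For the same reason no replicate could be left out. A fit of ploidy over the 3 stages, with stage as a term that pairs the libraries, was possible but was not made. Counting overlapping members once, adding a pseudocount of 1 and, for the ploidy comparisons, matching by sequence moved no count by over 1.5 times, but counting overlaps once lowered the median for MA against PMA in Taichung65-4x from 0.26 to 0.09. Scaling acted most on the stage comparisons. In the order equal sums, median ratio and clean reads, the calls became 18, 18 and 18 for 4x against 2x at MA, 14, 17 and 22 for SCP against MA in Taichung65-2x and 30, 28 and 37 for SCP against MA in Taichung65-4x. The medians became 0.64, 0.88 and 1.05 for SCP against MA in Taichung65-2x, 0.84, 0.83 and 0.86 for MA against PMA in Taichung65-4x, 0.88, 0.84 and 0.98 for SCP against MA in Taichung65-4x, and, with clean reads, −0.14 for MA against PMA in Taichung65-2x. As a percent of listed signal and per clean reads, the summed folds became 1.92 and 1.95 at MA and 0.876 and 0.935, 1.48 and 1.96, 1.88 and 1.91, and 1.79 and 1.92 for the earlier and the later step in Taichung65-2x, then in Taichung65-4x; at SCP the percent gave 2.33. With equal sums and with clean reads, the members highest at PMA became 15 and 11 (Taichung65-2x) and 2 and 2 (Taichung65-4x), those highest at MA 10 and 8 in Taichung65-4x and, with clean reads, 4 in Taichung65-2x, and those highest at SCP in Taichung65-2x 27 and 36.

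A threshold of 20 left 3 and 11 calls at PMA and SCP between the ploidies, and 2, 0, 4 and 5 in the stage comparisons; it raised the median at MA to 1.24. With no threshold, SCP against MA in Taichung65-2x had 13 calls and turned from 5 higher and 4 lower to 6 and 7. A fold over 1.5 gave 18 calls at PMA, 23 at MA and 19 for SCP against MA in Taichung65-2x, and in Taichung65-4x 37 for MA against PMA and 34 for the later step. Unlisted members at 0.01 gave 30, 35 and 49 calls at PMA, MA and SCP, and at PMA turned the balance to 19 higher and 11 lower; this setting reads absence from a table as 0. Depth limits the single members: with 7 to 16 reads for the median member, a fold of 2 often lies within counting error.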
